A study of Drosophila melanogaster with 30 samples.

Results

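The genes described here belong to the cytosolic Hsp70 and Hsp90 chaperone system and are not all of it. They are the chaperones Hsc70-4 and Hsp83, the J-domain co-chaperones DnaJ-1 and Droj2, the exchange factor Hsp110, the adaptor Stip1 and CG1416, a gene related to the Hsp90 activator Aha1. They are 7 of the 10844 genes that the array's probe sets name, and each was read by 1 probe set. The genes were listed by name after they had been seen to be lower in brains of sleep-deprived flies than in brains of sleeping flies. Their values in that experiment are therefore given as a description with no test, and tests are kept for a second experiment with its own flies. Results of that second experiment were also known when the genes were listed. The platform annotation named 6 of the probe sets, and Hsp83 was found through a probe identifier that RefSeq lists as a synonym of the gene.

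Whole brains of virgin females of Canton-S, a standard wild-type strain, were profiled at 5 days of age on Affymetrix arrays, with 3 arrays in each of 10 groups. RNA of each array came from a pool of 139 to 193 brains. In the deprivation experiment (21 arrays), flies were kept awake by handling of their monitors for 2, 4 or 6 h from ZT14, the start of the night's consolidated sleep, where ZT counts hours from lights-on. Undisturbed flies of the same hours were the sleeping groups, and flies taken at ZT14 were the 0 h group. The other experiment (9 arrays) was done in the active period to control for handling: stimulated flies were handled from ZT10 to ZT14, wake flies were left alone to ZT14, and a further group was taken at ZT10. Every group lived at 25 °C with 12 h of light, 50 flies to a vial, and every group was killed in water above 95 °C before the brains were dissected. One array, sleeping 6 h replicate 1, has a source label that calls it deprived, while its title, description and condition call it sleeping, and it was used as sleeping.

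Hsp70 proteins hold unfolded or newly made proteins and let them go in cycles of ATP binding and hydrolysis. J-domain proteins bring the client and set off hydrolysis, and Hsp110 proteins exchange the spent nucleotide so that the client is released. Stip1, also called Hop, binds Hsp70 and Hsp90 together and passes clients such as kinases and receptors from one to the other, and Aha1 speeds up the ATPase of Hsp90, as shown in yeast.

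Values are log2 expression values, so a difference of 1 is a doubling. The median of all probe sets lay between 4.89 and 4.96 in each array. Of 5 neuron markers 4 were measured (elav, nSyb, brp and Appl), and their mean signal lay between 5.84 and 7.05 in deprived brains and between 6.83 and 7.24 in sleeping brains, with the lowest value in deprived 2 h replicate 2. The neuron markers were lower by a median of -0.38 in deprived than in sleeping brains, with none of the 4 past the threshold. Of 5 photoreceptor markers 3 were measured, and their mean signal averaged 7.16 (6.76 to 7.65) in deprived and 7.62 (6.69 to 8.32) in sleeping brains, with a difference of -0.86 at 2 h and -0.12 at 6 h. The 3 measured of 4 olfactory organ markers went the other way, at 6.02 (5.52 to 6.37) in deprived and 5.62 (5.25 to 6.36) in sleeping brains, with a difference of 0.09 at 2 h and 0.74 at 6 h, and none of these markers passed either. The part of these markers in the chaperone differences was not tested; without deprived 2 h replicate 2 the differences described next ran from -1.06 for Hsp83 to -0.15 for Hsc70-4. In such bulk samples, fewer cells of a type and less RNA per cell cannot be told apart.

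All 7 chaperone genes had lower means in deprived than in sleeping brains, with a median difference of -0.62 over the genes, against 0.01 over all 13966 probe sets tested, of which 45.8% were below 0. Hsp83, the Hsp90 of the fly, differed most, by -1.14 (2.21-fold lower), and the Hsp70 gene Hsc70-4 differed least, by -0.18 (1.14-fold lower). The co-chaperones lay between them. Every one of these differences belongs to the contrast that chose the genes.

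Hsp83, the client-maturing chaperone at the end of the pathway, read 9.33, 8.67 and 9.53 in the 3 brain pools deprived for 2 h, against 10.32, 10.00 and 10.44 in the pools that slept. At 4 h it read 8.77, 9.53 and 9.83 in deprived pools, against 10.42, 10.47 and 10.46 in sleeping pools. At 6 h it read 8.61, 9.11 and 9.67 in deprived pools, against 10.38, 10.25 and 10.59 in sleeping pools. The highest of the 9 deprived arrays was below the lowest of the 9 sleeping arrays. Hsp83 was the one gene of the 7 with such a separation over all hours, which 0.0358% of all probe sets showed. The ZT14 pools read 10.59, 10.26 and 10.29, within the range of the sleeping pools. The group means of the deprivation experiment ran, from low to high, from deprived 6 h (9.13), 2 h (9.18) and 4 h (9.38) to sleeping 2 h (10.25), ZT14 (10.38), sleeping 6 h (10.41) and sleeping 4 h (10.45). The step between deprived 4 h and sleeping 2 h was wider than the SD of either group (0.55 and 0.23), while neighbouring means on each side of it differed by less than the larger of their SDs.

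The pools of deprived brains also spread more widely for Hsp83 than the sleeping ones. The pooled SD within groups was 0.51 log2 units for deprived and 0.17 for sleeping arrays. Stip1 (0.38 against 0.14) and DnaJ-1 (0.35 against 0.16) had the same order of spreads. Droj2 (0.11 against 0.19) and Hsc70-4 (0.16 against 0.21) had the opposite order, so a wider spread in deprived brains was not shared by all 7 genes. Each deprived group mixed recorded hybridisation times, while the sleeping 2 h arrays shared a time, as did the sleeping 6 h arrays. The highest Hsp83 array of each deprived group (9.53, 9.83 and 9.67) had hybridisation time 4, as did those of Stip1 and DnaJ-1. No sleeping array had that time. Deprivation and hybridisation time thus cannot be told apart in this spread.

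**Figure D1:**
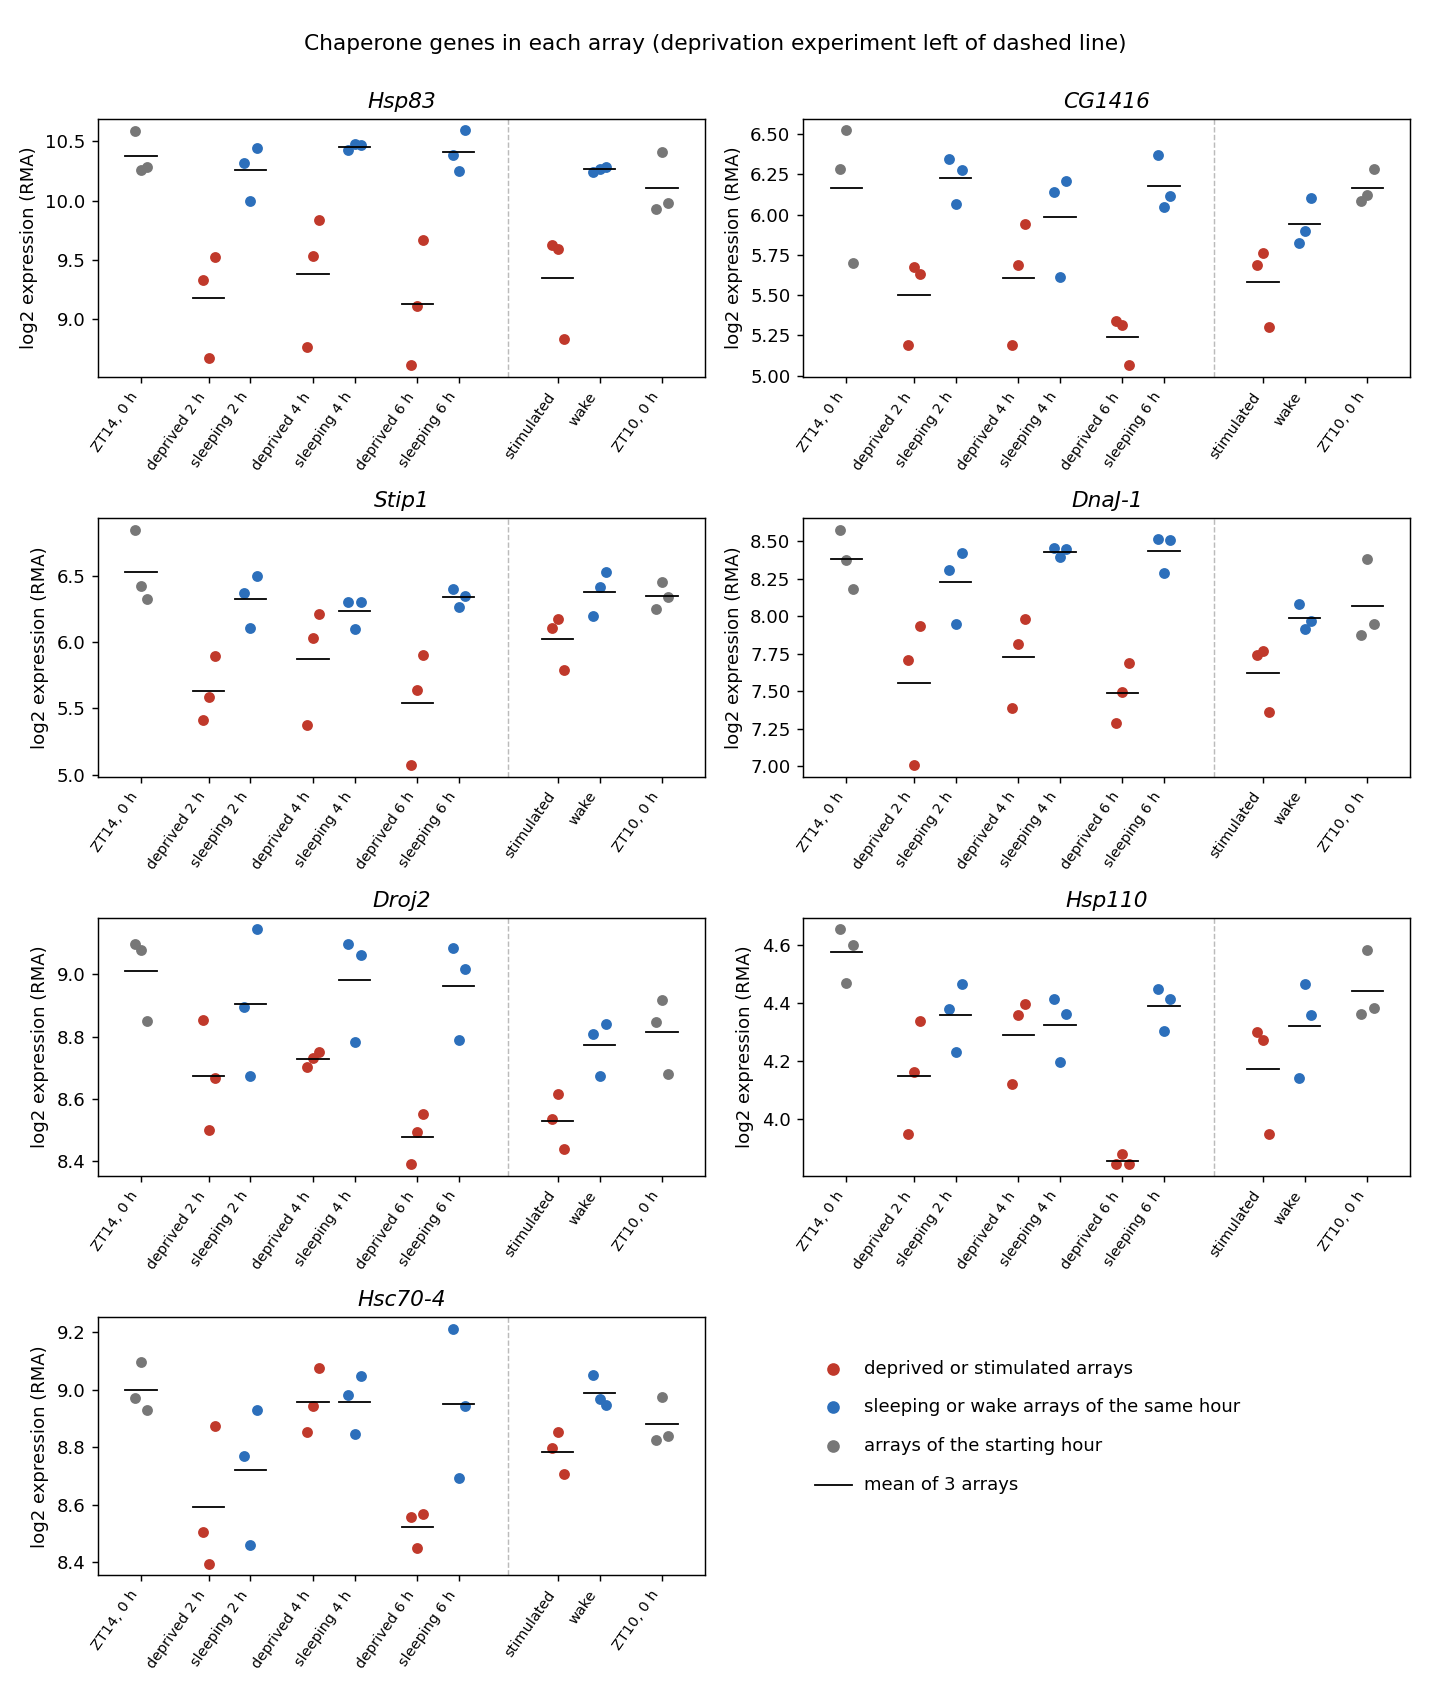
Log2 expression of each gene (vertical axis, RMA values, a scale of its own in each panel) in each array, by group (horizontal axis); points are arrays and bars are means of 3. In Hsp83 the 9 deprived arrays lie between 8.61 and 9.83 and the 9 sleeping arrays between 10.00 and 10.59.

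CG1416, the Aha1 relative, read 5.19, 5.68 and 5.63 after 2 h of deprivation, against 6.35, 6.07 and 6.28 after 2 h of sleep. At 4 h it read 5.19, 5.69 and 5.94 in deprived pools, against 6.14, 5.61 and 6.21 in sleeping pools. At 6 h it read 5.34, 5.31 and 5.06 in deprived pools, against 6.37, 6.05 and 6.11 in sleeping pools. The groups were apart at 2 and 6 h and overlapped at 4 h, where sleeping replicate 2 was low. Over the 3 hours the difference was -0.68 (1.61-fold lower). The ZT14 pools of CG1416 read 6.28, 6.52 and 5.70, the widest spread that any of the 7 genes had in that group.

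Stip1, the link between Hsp70 and Hsp90, read 5.41, 5.58 and 5.90 in brains deprived for 2 h, against 6.37, 6.10 and 6.50 in sleeping brains. At 4 h the values were 5.38, 6.03 and 6.21 in deprived brains, against 6.30, 6.10 and 6.30 in sleeping brains. At 6 h they were 5.07, 5.64 and 5.91 in deprived brains, against 6.40, 6.27 and 6.35 in sleeping brains. As for CG1416, the groups overlapped at 4 h alone, through the highest deprived pool. The difference over the hours was -0.62 (1.54-fold lower). At ZT14 Stip1 read 6.85, 6.42 and 6.33, and each of the 9 sleeping arrays was below the ZT14 mean.

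The J-domain proteins, which deliver clients to Hsp70, were both lower in deprived brains. DnaJ-1, the heat-inducible Hsp40 of the fly, read 7.71, 7.01 and 7.93 at 2 h of deprivation, against 8.31, 7.95 and 8.42 in sleeping brains. At 4 h it read 7.39, 7.81 and 7.98 in deprived brains, against 8.45, 8.39 and 8.45 in sleeping brains. At 6 h it read 7.29, 7.49 and 7.69 in deprived brains, against 8.51, 8.29 and 8.51 in sleeping brains. The groups were apart at every hour, and the difference was -0.77 (1.71-fold lower), the second largest of the 7. Over all hours 1 narrow overlap remained, between the highest deprived array (7.98, 4 h) and the lowest sleeping array (7.95, 2 h).

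Droj2, a second J-domain gene, read from 8.39 to 8.85 in the 9 deprived arrays with a median of 8.67, and from 8.67 to 9.14 in the 9 sleeping arrays with a median of 9.02. Every deprived array was below the sleeping mean of its own hour. The groups overlapped at 2 h and were apart at 4 and 6 h. The difference was -0.32 (1.25-fold lower), smaller than that of DnaJ-1.

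Hsc70-4, the main constitutive cytosolic Hsp70, read 8.50, 8.40 and 8.87 after 2 h of deprivation, against 8.77, 8.46 and 8.93 after 2 h of sleep. At 4 h it read 8.85, 8.94 and 9.08 in deprived brains, against 8.98, 8.85 and 9.05 in sleeping brains. At 6 h it read 8.56, 8.45 and 8.57 in deprived brains, against 9.21, 8.69 and 8.94 in sleeping brains. The groups overlapped at 2 and 4 h, where the means differed by -0.13 and 0.00, and were apart at 6 h, where they differed by -0.43. Most of the difference of Hsc70-4 over the 3 hours thus came from the last one.

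Hsp110, the exchange factor, had a dim signal, below the median of all probe sets (4.93), where RMA compresses differences. It read from 3.84 to 4.40 in deprived arrays with a median of 4.12, and from 4.20 to 4.47 in sleeping arrays with a median of 4.38. Its difference was -0.26 (1.20-fold lower) over all hours, -0.03 at 4 h and -0.53 at 6 h. At 6 h the deprived pools read 3.84, 3.88 and 3.84, against 4.45, 4.30 and 4.42 in the sleeping pools.

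Across the hours, the groups did not overlap for 4 of the 7 genes at 2 h, for 3 at 4 h and for all 7 at 6 h, with every deprived array below every sleeping array. Of all probe sets 4.86%, 6.52% and 13.4% showed this at 2, 4 and 6 h. At 2 h and at 6 h the deprived and sleeping arrays had no hybridisation time in common. Deprivation and hybridisation time thus cannot be told apart at those hours. The median difference of the genes was -0.67 at 2 h, -0.36 at 4 h and -0.80 at 6 h. Whether the hours differ from each other was not tested, since the same arrays chose the genes. Over all hours the differences ran from -1.14 to -0.62 for Hsp83, DnaJ-1, CG1416 and Stip1, and from -0.32 to -0.18 for Droj2, Hsp110 and Hsc70-4.

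Set against the 0 h flies at ZT14, deprived brains were lower in all 7 genes, as they were in 44.4% of all probe sets. Hsp83 differed by -1.15, Stip1 by -0.85, DnaJ-1 by -0.79, CG1416 by -0.72, Hsp110 by -0.48, Droj2 by -0.38 and Hsc70-4 by -0.31. The genes were chosen for low values in these same deprived arrays, so this comparison too is a description. The arrays of 4 genes (Hsp83, Stip1, DnaJ-1 and Hsp110) did not overlap with those of ZT14, which 2.01% of all probe sets showed. Sleeping brains differed less from ZT14, between -0.23 for Stip1 and -0.01 for Hsp83, with a median of -0.06. Hsp110 (-0.22) was the 1 gene whose sleeping arrays were all below the ZT14 arrays, as were those of 0.637% of all probe sets. With hybridisation time as a block, sleeping brains stood at -0.03 (SE 0.13) for Hsp110 and at -0.22 for Droj2. Without ZT14 replicate 1 they stood at -0.08 for Stip1. These comparisons share the 3 ZT14 arrays, so they are not independent of each other. The value of CG1416 rested most on single ZT14 arrays, at -0.54 without ZT14 replicate 2 and -0.96 without ZT14 replicate 3.

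Arrays of the deprivation experiment differed in chip lot, in the recorded hybridisation time and in RNA quality. The difference between 3′ and 5′ GAPDH control probe sets, a measure of how far RNA or its labelled copy is shortened, averaged 1.94 (1.71 to 2.36) in deprived and 1.71 (1.40 to 2.22) in sleeping arrays. With this difference as a covariate, Hsp83 stood at -0.87, CG1416 at -0.66, DnaJ-1 at -0.52, Stip1 at -0.46, Hsp110 at -0.21, Droj2 at -0.18 and Hsc70-4 at -0.05, a fall in size by over 1.5 times for Droj2 and Hsc70-4. With hybridisation time as a block, Hsp83 stood at -1.48, DnaJ-1 at -0.98, Stip1 at -0.86 and Hsc70-4 at -0.28. At 2 and 6 h no deprived array shared its hybridisation time with a sleeping array of its hour. These block values thus rest partly on arrays of different hours. Within chip lot 2 the differences were -1.29 for Hsp83, -0.84 for CG1416, -0.81 for DnaJ-1, -0.80 for Stip1, -0.42 for Droj2, -0.26 for Hsp110 and -0.23 for Hsc70-4. Within chip lot 3 they were smaller, at -0.96 for Hsp83, -0.68 for DnaJ-1, -0.43 for CG1416, -0.41 for Stip1, -0.21 for Droj2, -0.20 for Hsp110 and -0.11 for Hsc70-4. The 4 h arrays of lot 3, 1 deprived and 1 sleeping, did not all show the lower level: CG1416 (0.33), Hsc70-4 (0.23), Hsp110 (0.20) and Stip1 (0.11) were higher in the deprived array, and Hsp83 (-0.64), DnaJ-1 (-0.41) and Droj2 (-0.03) were lower. Of the other hours, Hsc70-4 at 2 h in lot 2 (0.10) was the 1 value above 0. At 4 h, the 1 deprived array that shared its hybridisation time with 2 sleeping arrays read 8.77 for Hsp83, against a mean of 10.47 for those 2. The same difference was -1.03 for DnaJ-1, -0.83 for Stip1, -0.72 for CG1416, -0.22 for Droj2, -0.16 for Hsp110 and -0.09 for Hsc70-4. That deprived array, replicate 1, was the lowest of its group for all 7 genes.

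The active period experiment used other flies and arrays than the contrast on which the genes were chosen, although results of these arrays were also known when the genes were listed. All 7 genes were again lower in handled flies, with a median difference between stimulated and wake brains of -0.36, against 0.00 over all probe sets. None of the 7 passed an adjusted p of 0.05 (limma with Benjamini-Hochberg adjustment over all probe sets), as 0.0859% of all probe sets did (12 in number, 1 lower and 11 higher). At an unadjusted p under 0.05, 6 of the 7 were lower, as were 2.99% of all probe sets. This count was 2 (Hsp83 and Stip1) without stimulated replicate 3 and 4 with the GAPDH covariate described above. The direction below 0, seen in 7 of 7 genes, was seen in 48.8% of all probe sets. The genes move together from pool to pool, as given further on, so these counts are not 7 independent readings.

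Hsp83 read 9.63, 9.59 and 8.83 in stimulated brains, against 10.24, 10.27 and 10.28 in wake brains. All stimulated pools were below all wake pools, and stimulated replicate 3 was far below the others. The difference was -0.91 ± 0.17 (SE; 1.88-fold lower; 95% interval -1.28 to -0.55), with a limma adjusted p of 0.074. That call was near the threshold: the limma adjusted p was 0.021 when only the 2 groups compared were fitted and 0.0489 with 1 probe set per gene. With replicate number as a block it was 0.0358. It was 0.144 with chip lot as a block, 0.128 among the brighter probe sets and 0.117 with the GAPDH covariate. After renewed quantile normalisation it was 0.061, and without wake replicate 2 it was 0.435. Without stimulated replicate 3 the difference was -0.66, with a limma adjusted p of 0.113.

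DnaJ-1 read 7.74, 7.77 and 7.36 in stimulated brains, against 8.08, 7.91 and 7.97 in wake brains. The difference was -0.36 ± 0.13 (limma adjusted p of 0.61), with no overlap of the pools. Droj2 read 8.53, 8.62 and 8.44 in stimulated brains, against 8.81, 8.67 and 8.84 in wake brains. Its difference of -0.24 ± 0.09 also came with no overlap and did not pass (limma adjusted p of 0.60). For both J-domain genes the gap between the groups was small beside the distance from the lowest to the highest pool.

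Stip1 read 6.11, 6.17 and 5.79 in stimulated brains, against 6.20, 6.42 and 6.53 in wake brains, a difference of -0.36 ± 0.11 (limma adjusted p of 0.51). CG1416 read 5.69, 5.76 and 5.30 in stimulated brains, against 5.82, 5.90 and 6.10 in wake brains, a difference of -0.36 ± 0.11 (limma adjusted p of 0.55). In both co-chaperones the pools were apart by a narrow margin, with stimulated replicate 3 the lowest. Hsc70-4 read 8.80, 8.85 and 8.71 in stimulated brains, against 9.05, 8.97 and 8.95 in wake brains, a difference of -0.20 ± 0.08 (limma adjusted p of 0.64). Hsp110 read 4.30, 4.27 and 3.95 in stimulated brains, against 4.14, 4.46 and 4.36 in wake brains, a difference of -0.15 ± 0.11 (limma adjusted p of 0.81). Hsp110 was the 1 gene whose pools overlapped. The other 6 had every stimulated pool below every wake pool, as did 5.75% of all probe sets.

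Stimulated replicate 3 was the lowest of its group for all 7 genes, and it also had the highest GAPDH 3′ to 5′ difference of the 30 arrays (2.91); the part of that difference in its low values was not tested. Without it the differences of the other 6 genes ran from -0.24 for Stip1 to -0.03 for Hsp110. The GAPDH 3′ to 5′ difference averaged 2.69 in stimulated and 2.52 in wake arrays, and with it as a covariate Hsp83 stood at -0.74 and DnaJ-1 at -0.22. The neuron markers moved by a median of -0.01 between these groups. The 3 measured photoreceptor markers averaged 7.15 (6.82 to 7.47) in stimulated and 6.83 (6.53 to 6.99) in wake brains. None of them passed the threshold, and their part in the chaperone differences was not tested. Of 4 olfactory organ markers 3 were measured, and their mean signal averaged 6.30 (5.95 to 6.54) in stimulated and 5.70 (5.51 to 5.84) in wake brains, with none past the threshold; their part in the chaperone differences was not tested.

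**Figure D2:**
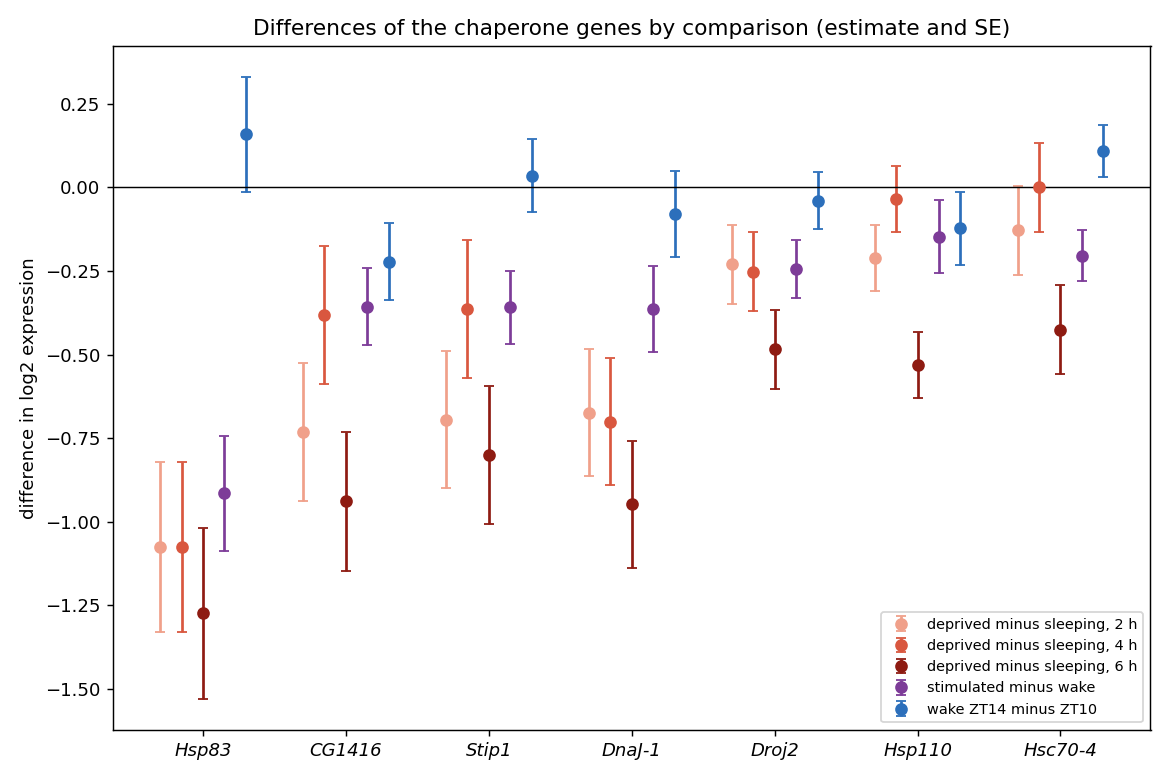
Differences in log2 expression with their standard errors (vertical axis) for each gene (horizontal axis), from 1 fit per experiment; the first 3 points of a gene compare deprived with sleeping brains, the fourth stimulated with wake brains and the fifth wake brains at ZT14 with brains at ZT10. Hsp83 lies lowest in the first 4 comparisons (-1.08, -1.08, -1.27 and -0.91) and at 0.16 in the fifth.

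In undisturbed flies the 7 genes differed in both directions between ZT14 and ZT10. Hsp83 read 10.24, 10.27 and 10.28 in wake brains at ZT14, against 9.93, 10.40 and 9.98 in brains at ZT10, a difference of 0.16 ± 0.17 (limma adjusted p of 0.72). The 7 differences ran from -0.22 for CG1416 (limma adjusted p of 0.47) to 0.16 for Hsp83, with 4 below 0 and a median of -0.04. Of all probe sets 44.9% were below 0. None of the 7 passed, and none had an unadjusted p under 0.05 (limma), where 0.0644% and 11.4% of all probe sets did. No gene had all its wake pools below all its ZT10 pools, which 7.48% of all probe sets showed. The 3 measured photoreceptor markers averaged 6.83 in wake and 7.55 in ZT10 brains, and 5 fat body markers averaged 9.34 and 8.79. None of these markers passed the threshold, and their part in the chaperone values was not tested.

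Stimulated brains at ZT14 were also set against brains at ZT10, a comparison that shares the stimulated arrays with the one against wake brains. CG1416 read 5.69, 5.76 and 5.30 in stimulated brains, against 6.09, 6.12 and 6.28 at ZT10. This difference of -0.58 ± 0.11 (1.49-fold lower) had a limma adjusted p of 0.055. It passed with chip lot as a block (limma adjusted p of 0.0463), with 1 probe set per gene (0.0391) and without stimulated replicate 2 (0.0454). It did not pass among the brighter probe sets (0.066), after renewed quantile normalisation (0.063), with only the groups compared (0.074) or with the GAPDH covariate (-0.45, limma adjusted p of 0.57), nor without any of the other 5 arrays, among them stimulated replicate 3 (-0.44, limma adjusted p of 0.24). Hsp83 differed by -0.76 ± 0.17 (limma adjusted p of 0.098), DnaJ-1 by -0.44, Stip1 by -0.32, Droj2 by -0.28, Hsp110 by -0.27 and Hsc70-4 by -0.09. None of the 7 passed, as 0.251% of all probe sets did, and 6 were lower at an unadjusted p under 0.05 (limma), as were 4.64% of all probe sets; 4 were so without stimulated replicate 3 and 2 (CG1416 and Hsp83) with the GAPDH covariate. The GAPDH 3′ to 5′ difference averaged 2.69 in stimulated and 2.35 in ZT10 arrays, and with it as a covariate Hsp83 stood at -0.40, DnaJ-1 at -0.16, Stip1 at -0.20, Hsp110 at -0.16 and Hsc70-4 at 0.02. Without stimulated replicate 3, Hsp83 stood at -0.50, Stip1 at -0.21, Hsp110 at -0.16 and Hsc70-4 at -0.05. DnaJ-1 stood at -0.29 without ZT10 replicate 2, and Hsc70-4 at -0.05. The pools of 6 genes did not overlap, which 7.33% of all probe sets showed, and Hsc70-4 was the exception.

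Beyond the group means, the 7 genes shared their array-to-array deviations. After the mean of each group was taken out, all 21 pairs of genes correlated above 0 over the 30 arrays, with a Pearson r between 0.26 and 0.90 and a median of 0.54. The closest pair was DnaJ-1 and Hsp83 (r of 0.90), followed by Stip1 and Hsp83 (r of 0.83), and the loosest was CG1416 and Hsp83 (r of 0.26). Over all probe sets the median r with Hsp83 was -0.05, and 90% lay between -0.44 and 0.43. Pairs of values from the same array share its RNA pool, its hybridisation and its normalisation, so the correlations are a description. Within the 9 arrays of the active period experiment the median r of the 21 pairs was 0.63. Over these 9 arrays 90% of all probe sets had an r with Hsp83 between -0.67 and 0.66, a range that includes this median. The same pool was often the lowest for many genes: deprived 4 h replicate 1, sleeping 2 h replicate 2, sleeping 6 h replicate 2 and stimulated replicate 3 were each the lowest of their group for all 7. Each of these arrays also had the highest GAPDH 3′ to 5′ difference of its group, at 1.79, 2.22, 1.81 and 2.91. For deprived 4 h replicate 1 the margin was narrow, with 1.78 in replicate 2. Sleeping 4 h replicate 2, the lowest for 6 genes, did not have the highest (1.52, against 1.68 in replicate 3). The part of RNA quality in the shared deviations was not tested.

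**Figure D3:**
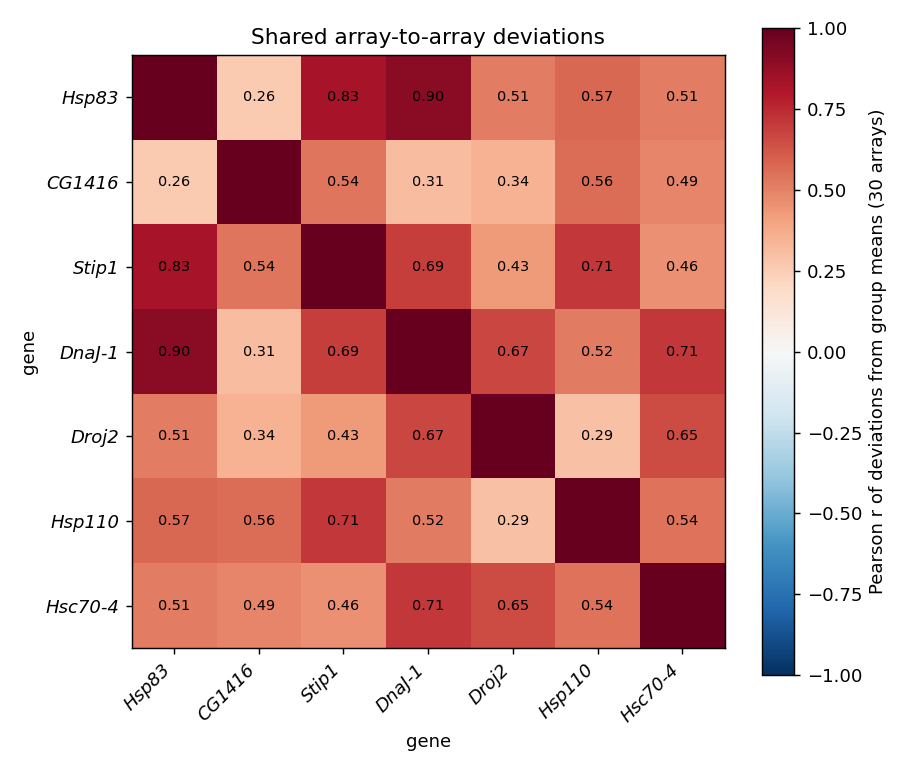
Pearson correlation over 30 arrays of the deviations of each pair of genes from their group means (colour scale from -1 to 1, values printed in the cells, genes on both axes). All 21 pairs lie above 0, from 0.26 (CG1416 and Hsp83) to 0.90 (DnaJ-1 and Hsp83).

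The genes whose pattern over the 10 group means was most like the mean of the 7 were taken from 5722 genes with brighter probe sets, each centred on its own experiment. The 5 closest other genes were Smyd3 (r of 0.98), CCT8 (0.97), CG9257 (0.96), Hsp60A (0.96) and Hrb98DE (0.96). Hrb98DE differed by -0.45 between deprived and sleeping brains and by -0.38 between stimulated and wake brains, and Hsp60A by -0.27 and -0.15. Of the 7 genes themselves, 5 ranked among the 7 closest, which their part in the mean favours. Hsc70-4 (r of 0.79) ranked 496, the lowest among those of the 7 that were ranked. Hsp110 was too dim to be ranked.

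Other cytosolic chaperones were read for comparison: 50 genes were listed and 39 had a probe set of their own. The near-identical heat-inducible Hsp70A and Hsp70B genes had none, and 2 probe sets that name several Hsp70 genes at once were not read. Between deprived and sleeping brains 3 of the 39 fell and none rose, as 0.437% and 0.487% of all probe sets did. The 3 were Sgt1, an Hsp90 co-chaperone that averaged 5.06 in deprived and 5.35 in sleeping brains (-0.29 ± 0.05, limma adjusted p of 0.0076), Cdc37, which brings kinases to Hsp90 (-0.22 ± 0.05, limma adjusted p of 0.041), and CCT4, a subunit of the CCT chaperonin that folds actin and tubulin (-0.23 ± 0.05, limma adjusted p of 0.019). The median of the 39 was -0.07.

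Sgt1 passed in all 18 fits that left out 1 array and under hybridisation time as a block (limma adjusted p of 0.016). CCT4 also passed in all 18, but not under that block (-0.25 ± 0.06, limma adjusted p of 0.095), renewed quantile normalisation (-0.18, 0.15) or the GAPDH covariate (-0.19, 0.19). Cdc37 passed in 3 of the 18, those without deprived 2 h replicate 1, sleeping 2 h replicate 1 or sleeping 4 h replicate 3 (limma adjusted p from 0.021 to 0.097 over the 18), and was lost under the same 3 settings (-0.21, -0.18 and -0.17, limma adjusted p of 0.19, 0.24 and 0.33). Thus Sgt1 alone among the 3 held in each of those settings. Its values do not rest on the choice of the 7 genes, although the lists were drawn up with results of these arrays known.

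By family, the 11 other Hsp70 and Hsp90 co-chaperones had a median difference of -0.08 between deprived and sleeping brains, with 10 below 0. Of all probe sets 45.8% were below 0. The 14 CCT and prefoldin genes had a median of -0.12, with 12 below 0, CCT8 at -0.22 (limma adjusted p of 0.092) after CCT4. The 10 other J-domain genes had a median of 0.01, with CG10565 at -0.13 (limma adjusted p of 0.18) and CG2887 at 0.12 (0.41). Of the other Hsp70 genes, Hsp68 stood at -0.19 (limma adjusted p of 0.40) and Hsc70-1 at 0.08 (0.46). Hsf, the transcription factor that drives heat shock genes, averaged 5.83 in both deprived and sleeping brains (limma adjusted p of 0.99).

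Against ZT14, 2 of the 39 fell in deprived brains and none rose, where 0.344% and 0.122% of all probe sets did: Sgt1 (-0.35, limma adjusted p of 0.035) and CCT3 (-0.34, limma adjusted p of 0.043). With hybridisation time as a block the differences were -0.34 ± 0.13 for Sgt1 and -0.42 ± 0.12 for CCT3, and both calls were lost (limma adjusted p of 0.97 for each). The same held with chip lot as a block (limma adjusted p of 0.0519 and 0.0544). The call of Sgt1 was lost after renewed quantile normalisation (limma adjusted p of 0.0515), and that of CCT3 with the GAPDH covariate (limma adjusted p of 0.0567). Both were lost without ZT14 replicate 1 or ZT14 replicate 2, where the limma adjusted p lay between 0.21 and 0.32. They were also lost with only the groups compared (limma adjusted p of 0.17 and 0.16). Without deprived 6 h replicate 1 or 2, Sgt1 stood at a limma adjusted p of 0.053 and 0.058, and CCT3 at 0.068 and 0.064. Other single omissions that ended a call were ZT14 replicate 3 for Sgt1 (limma adjusted p of 0.051) and deprived 2 h replicate 1, 4 h replicate 1 and 4 h replicate 3 for CCT3 (limma adjusted p of 0.055, 0.068 and 0.0502). The next in their lists by p were CCT4 (-0.28), unc-45 (-0.26), DnaJ-H (-0.24), CG7133 (0.15), Hsp68 (-0.32) and Hsc70-1 (0.08). In sleeping brains against ZT14 none of the 39 passed (limma), as 0.0286% of all probe sets did, and 3 were lower and 1 higher at an unadjusted p under 0.05, where 3.29% and 2.84% of all probe sets were. The smallest p-values of each list belonged to stv (0.31), Sgt (-0.27), CCT3 (-0.17), CCT1 (-0.14), DnaJ-H (-0.16), CG7133 (0.10), Hsp68 (-0.13) and Hsc70-2 (0.03).

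**Figure D4:**
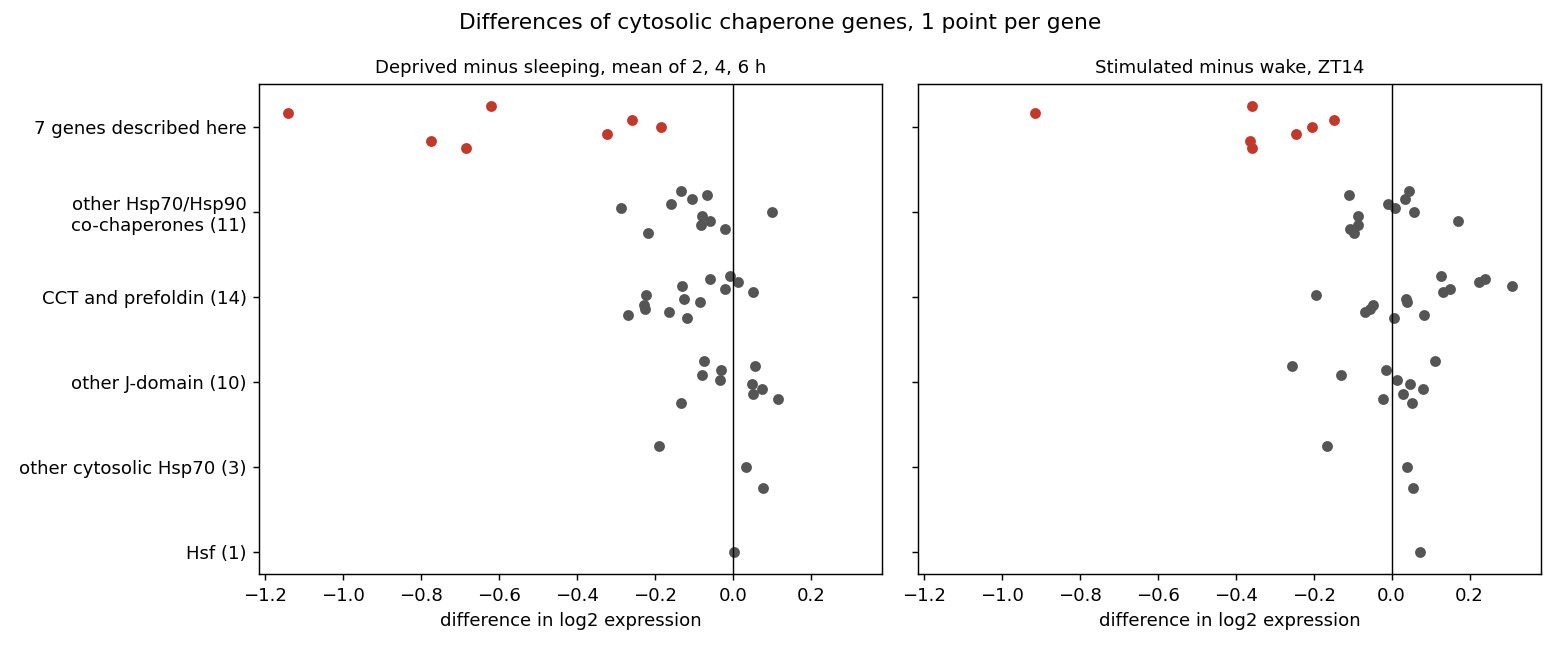
Differences in log2 expression (horizontal axis) of the 7 genes and of 39 other cytosolic chaperone genes by family (vertical axis), 1 point per gene, for deprived minus sleeping brains (left) and stimulated minus wake brains (right). The medians of the 7 are -0.62 and -0.36 and those of the 39 are -0.07 and 0.03; the 7 were chosen on the contrast at left.

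In the active period experiment none of the 39 other chaperones passed in any of the 3 comparisons (limma). Between stimulated and wake brains their median was 0.03, and 15 of 39 were below 0, as were 48.8% of all probe sets. At an unadjusted p under 0.05 (limma), 2 were lower and 1 higher, where 2.99% and 4.05% of all probe sets were. The smallest p-values belonged to jdp (-0.25, limma adjusted p of 0.61), a J-domain gene, DnaJ-H (-0.13), CCT8 (-0.19, limma adjusted p of 0.62), Pfdn6 (0.24), PpD3 (0.17), stv (-0.11), Hsp68 (-0.17) and Hsc70-1 (0.05). CCT and prefoldin genes, which were mostly below 0 in deprived brains, were below 0 in 4 of 14 here. The Hsp90 partners Cdc37 (-0.10) and Sgt1 (0.01), lower in deprived brains, did not pass here, and whether the 2 experiments differ was not tested.

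Between wake brains at ZT14 and brains at ZT10 the median of the 39 was -0.11, with 30 below 0, as were 44.9% of all probe sets. At an unadjusted p under 0.05 (limma), 8 were lower and 1 higher, where 6.42% and 4.97% of all probe sets were. The smallest p-values belonged to mgr (-0.34, limma adjusted p of 0.25), a prefoldin subunit, Pfdn4 (-0.49), stv (0.26), Fkbp59 (-0.19), Tpr2 (-0.20), CG10565 (-0.12), Hsf (-0.21), Hsc70-1 (0.06) and Hsp68 (-0.08). Between stimulated brains and brains at ZT10 the median was -0.08, and 8 were lower and none higher at an unadjusted p under 0.05, where 4.64% and 5.47% of all probe sets were. There the smallest p-values belonged to Fkbp59 (-0.28, limma adjusted p of 0.19), an immunophilin, STUB1 (-0.26), CCT8 (-0.23), CCT3 (-0.18), jdp (-0.24), DnaJ-H (-0.18), Hsp68 (-0.24) and Hsc70-1 (0.11).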

How the data were processed

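The deposited values are log2 expression values that the authors made with the robust multi-array average (RMA), per the deposited study description. Per the submitters' processing notes the tools were affy and RMA, with versions not given in the sources used here. The authors' replicates are separate pools of brains, so p-values measure the spread between pools. Quantile normalisation hides a shift shared by most transcripts. Whether both experiments were normalised together is not stated, so each was fitted alone.

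After 44 control probe sets were left out, 13966 were tested with limma 3.58.1 in R 4.3.3, with 1 mean per group and Benjamini-Hochberg adjustment (threshold 0.05). Genes were named through the platform annotation, updated by the RefSeq table, and the brightest probe set stood for a gene. For Hsp83 the RefSeq synonym was used: 113 of 113 such identifiers that are also in the annotation gave the same gene. Probe sets shared by Hsc70-4 and another gene (2) or among Hsp70 genes (2) were not used. The genes and lists were chosen with earlier results of these data known. Of the other chaperones, those past the threshold and otherwise the 2 smallest p-values per list were named. Likeness was taken over probe sets brighter than the median. The deposited scanner settings gave chip lot and hybridisation time (the latter for the deprivation experiment only). The fits were tested on simulated data. Alternatives were the brighter probe sets alone, renewed quantile normalisation, fits of only the groups compared, blocks for replicate number, chip lot and hybridisation time, 1 probe set per gene and the omission of each array. The GAPDH covariate and the values within chip lots were added after the data were seen. Precision is limited by the 3 arrays of a group. No sequences were used here.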

Additional observations from a re-analysis of the deposited data

How the results depend on the processing

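Over all alternatives, the 181 values of the 7 genes between deprived and sleeping brains and the 139 between deprived brains and ZT14 were below 0. Between sleeping brains and ZT14, 124 of 139 were below 0. Between stimulated and wake brains all 90 were below 0 and 3 passed, each of Hsp83. Between stimulated brains and ZT10, 88 of 90 were below 0 and 3 passed, each of CG1416. None of 90 passed between wake brains and ZT10, and 47 of them were below 0. These counts are not independent readings. Fits of the brighter probe sets, of only the groups compared, with replicate block or with 1 probe set per gene leave a gene's difference unchanged. Fits without 1 array share all their other arrays, and the deprived and sleeping arrays also chose the genes. Counts of called probe sets moved more. Between deprived and sleeping brains 129 were called, 72 with hybridisation time as a block, 42 with the GAPDH covariate and 66 to 189 without 1 array. Any of sleeping 2 h, 4 h and 6 h replicates 1 and 3 or deprived 4 h and 6 h replicate 3 moved that count by over 1.5 times. Between deprived brains and ZT14 65 were called, 39 after renewed quantile normalisation, 7 with only the groups compared, 1 with hybridisation time as a block and 5 to 116 without 1 array (5, 8 and 116 without ZT14 replicates 1, 2 and 3, and 27, 35 and 31 without deprived 4 h replicate 1, 6 h replicate 1 and 4 h replicate 3). The median of the 7 genes there was -0.72, and -0.89 to -0.54 without 1 array. Between sleeping brains and ZT14 4 were called, 0 with hybridisation time as a block and 2 (without ZT14 replicate 3) to 6 without 1 array. Between stimulated and wake brains 12 were called, 5 among the brighter probe sets, 35 with only the groups compared, 5 with chip lot as a block, 3 with the GAPDH covariate and 1 to 5 without any 1 of the 6 arrays. Between wake brains and ZT10 9 were called, 5 among the brighter probe sets, 16 with 1 probe set per gene and 3 to 9 without 1 array (3, 4 and 3 without wake replicate 2 and ZT10 replicates 1 and 3). Between stimulated brains and ZT10 35 were called, 2 with the GAPDH covariate and 14 to 38 without 1 array (17 and 15 without stimulated replicates 1 and 3, 14 and 20 without ZT10 replicates 1 and 2). The cause of these shifts was not tested.

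The replicate numbers do not pair the arrays: of pairs with the same number, 23 of 63 in the deprivation experiment and 1 of 9 in the active period experiment correlated above 0.1 in their deviations, and 7 of 21 and 2 of 9 arrays correlated best with an array of their own number. With replicate number as a block, the calls in the 6 comparisons in the order above were 98, 45, 4, 12, 10 and 40, and the adjusted p of Hsp83 between stimulated and wake brains was 0.0358. The call of Cdc37 between deprived and sleeping brains was lost with that block (limma adjusted p of 0.073).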
